A study of Mus musculus with 8 samples.

Results

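H19 and 9 other noncoding RNA genes were followed in total RNA and on heavy polysomes of differentiating C2C12 cells, mouse myoblasts grown as a line that form myotubes in low serum. The 10 genes were taken by symbol out of the 23420 gene lines of the count table: the imprinted RNAs H19 and Meg3, the nuclear RNAs Malat1 and Neat1, and the snoRNA host RNAs Gas5, Snhg1, Snhg5, Snhg6, Snhg8 and Snhg12. Of these, 9 had reads and passed the filter on low counts, which left 13167 genes for testing; Meg3 was listed at 0 in all 8 libraries. The members were chosen by their heavy polysome and total RNA levels in these same libraries, so polysome against total RNA is given below as a description, with no test.

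The 4 groups of 2 libraries each were AUF1 overexpression heavy polysome RNA, AUF1 overexpression total RNA, WT heavy polysome RNA and WT total RNA. AUF1, the product of Hnrnpd, is a protein that binds mRNAs at AU-rich elements. Cells of every group had been kept for 48 h in medium with 2% horse serum. The libraries titled High hold the polysome RNA, and their labels name cytoplasmic RNA as the molecule. A control vector in WT cells is not mentioned, nor whether AUF1 cells are 1 clone, and so the protein's effect cannot be told apart from other differences between these lines. Nothing ties the 2 libraries of a group to separate cultures; p-values then measure only how far these libraries lie apart, which may be technical variation.

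Long noncoding RNAs are transcribed and often spliced like mRNAs but encode no known long protein, and some are nevertheless found with ribosomes. H19 is transcribed from the maternal allele beside Igf2, is abundant in embryonic and differentiating muscle, and is the precursor of miR-675. Malat1 and Neat1 stay mostly in the nucleus, Malat1 in splicing speckles and Neat1 as the scaffold of paraspeckles. snoRNA host genes carry small nucleolar RNAs, the guides of ribosomal RNA modification, in their introns; the spliced exons left behind hold only short reading frames, and for Gas5 and Snhg1 they are known to start with a pyrimidine tract, as ribosomal protein mRNAs do, and to be degraded by nonsense-mediated decay.

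H19 lies at mm10 chr7:142575529-142578143 on the minus strand, and its merged exons span 2460 bases in GENCODE M21. The microRNA made from it is shown because its sequence lies inside the annotated exons of H19 (RefSeq, GRCm38.p6, chr7:142577112-142577133 and chr7:142577078-142577099, minus strand). Capitals mark the seed, bases 2 to 8.
mmu-miR-675-5p: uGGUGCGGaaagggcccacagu
mmu-miR-675-3p: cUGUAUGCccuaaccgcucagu
The separate line for Mir675 held 0 counts in every library, and these libraries do not measure the mature microRNA.

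The starts of 5 snoRNA hosts are shown because a pyrimidine tract at the start is the sequence feature for which this class is known (RefSeq, GRCm38.p6; 15 bases before and 25 bases from the annotated start onwards, sense strand; capitals mark the longest run of C and T letters). Of the 10 genes 7 had an entry in the promoter table, and for Gas5 the downstream of 2 listed starts is printed.
Gas5, chr1:161035151-161035190, plus strand: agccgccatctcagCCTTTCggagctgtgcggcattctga
Snhg1, chr19:8723472-8723511, plus strand: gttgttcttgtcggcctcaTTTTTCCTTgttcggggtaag
Snhg5, chr9:88522873-88522912, minus strand: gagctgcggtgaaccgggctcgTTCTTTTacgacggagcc
Snhg8, chr3:123508312-123508351, minus strand: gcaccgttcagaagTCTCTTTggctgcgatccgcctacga
Snhg12, chr4:132308663-132308702, plus strand: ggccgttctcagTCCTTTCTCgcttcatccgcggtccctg
The longest run was 9 letters in Snhg1 and Snhg12, 7 in Snhg5 and Snhg8 and 6 at the printed start of Gas5. At the other listed Gas5 start it was 3 letters, a length that 93.6% of promoters reached. Runs at least that long were common in the same window of all 32851 promoters, at 10.1% for 9 letters, 23.6% for 7 and 36.3% for 6. In Gas5, Snhg8 and Snhg12 the run spans the annotated start, and in Snhg1 and Snhg5 it begins 4 and 7 bases downstream.

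Gene counts came to 25281224 to 34917660 per library. Hnrnpd, the overexpressed gene, stood at 448 and 397 CPM (read counts normalised to library size, with TMM scaling by the trimmed mean of M-values) in AUF1 total RNA and at 64.2 and 99.6 CPM in WT total RNA, a log2 change of 2.37 ± 0.32 (SE; edgeR adjusted p = 0.0413). The replicate numbers split the libraries, with differences between replicates 1 and 2 correlated between groups (Pearson's r from 0.62 to 0.81 across 13167 genes, which are not independent replicates), so values within each number are given beside the pooled ones. The 6 myotube markers summed to 9986 to 13781 CPM in the 4 AUF1 libraries and to 1430 to 1905 CPM in the 4 WT libraries. The 5 fibroblast markers summed to 90.5 to 475 CPM in AUF1 and to 219 to 1389 CPM in WT libraries. Adipocyte, osteoblast and immune markers summed to at most 10.3, 0.486 and 1.09 CPM in any library. The part of these marker differences in the results below was not tested. In such bulk samples fewer cells of a type and less RNA per cell cannot be told apart.

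H19 was the most abundant line of the table by read count in all 4 total libraries. In the polysome libraries its level was 2741 and 2994 CPM in AUF1 cells and at 2161 and 2315 CPM in WT cells, where it ranked between 13 and 16 by read count. In total RNA it stood at 19435 and 16555 CPM in AUF1 cells and at 10441 and 12469 CPM in WT cells. The polysome libraries lay below all total libraries. On polysomes H19 took 0.267% (exact binomial 95% interval 0.265% to 0.268%) and 0.3% (0.298% to 0.302%) of gene counts in AUF1 cells and 0.225% (0.223% to 0.226%) and 0.257% (0.255% to 0.259%) in WT cells. In total RNA its share was 1.59% (1.58% to 1.59%) and 1.66% (1.66% to 1.66%) in AUF1 cells and 1% (0.998% to 1.01%) and 1.4% (1.4% to 1.41%) in WT cells. The 4 groups were ordered, from the highest, AUF1 total, WT total, AUF1 polysome and WT polysome, and no library of a group overlapped with a library of its neighbour in that order. These intervals cover counting error only.

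The other members were far less abundant. Per kb of merged exon, H19 averaged 7315 CPM in AUF1 total RNA and 4657 CPM in WT total RNA, while the 8 other RNAs with reads averaged between 1.89 (Malat1) and 33.2 (Snhg8) CPM per kb in AUF1 total RNA and between 1.95 (Malat1) and 31.9 (Snhg5) in WT total RNA. H19 supplied 91.7% to 98.5% of the reads of the 10 genes in each library. Merged exon length overstates the length of spliced snoRNA hosts, because the annotation includes transcripts that keep their introns, so these per-kb levels are lower limits for them.

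**Figure D1:**
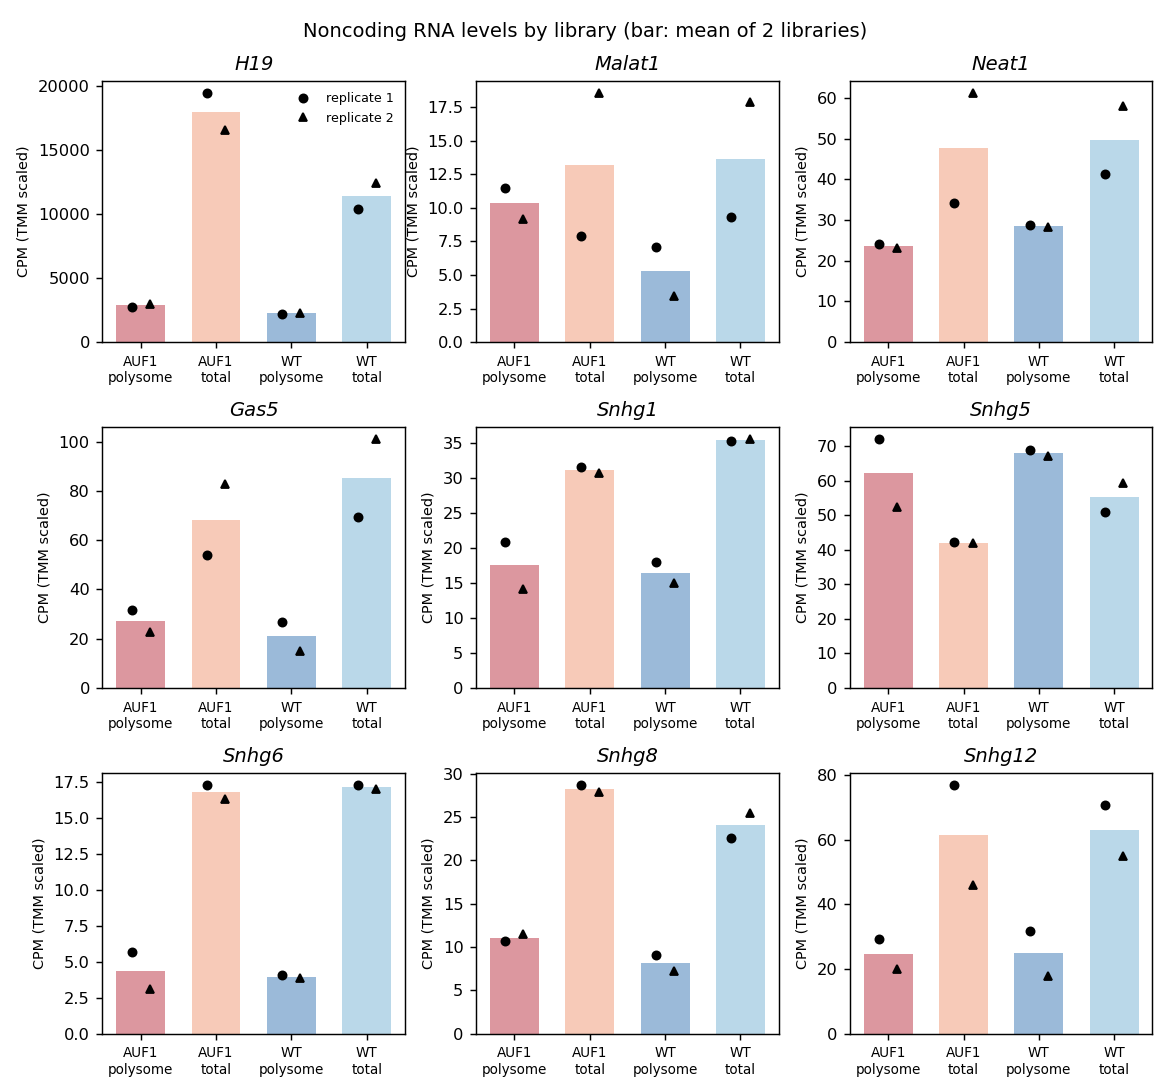
TMM-scaled CPM (y axis, linear, separate scale per gene) of the 9 noncoding RNAs with reads in AUF1 polysome, AUF1 total, WT polysome and WT total libraries; bars are means of 2 libraries, circles replicate 1 and triangles replicate 2. H19 and most snoRNA hosts stand lower in the polysome libraries than in the total libraries of either genotype, and Snhg5 stands higher.

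The comparison of heavy polysome with total RNA asks how much of an RNA's reads travel with many ribosomes relative to all other genes. H19 had a log2 ratio of polysome over total of -2.65 ± 0.22 (SE) in AUF1 cells, a level 6.28-fold lower on polysomes, and of -2.36 ± 0.22 in WT cells, 5.12-fold lower. Within replicates 1 and 2 the ratio was -2.83 and -2.47 in AUF1 cells and -2.27 and -2.43 in WT cells. H19 stood at place 10 from the lowest of 13167 tested genes in AUF1 cells and at place 14 in WT cells. The median gene stood at -0.02 in AUF1 and 0.02 in WT, with quartiles of -0.32 and 0.28 and of -0.26 and 0.26. Because each library is scaled to its own total, these ratios compare shares of a library, not molecules per cell.

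Among the snoRNA hosts, 5 of 6 stood lower on polysomes than in total RNA in each genotype, with no overlap between the libraries. Of all tested genes 13.4% did so in AUF1 and 14.9% in WT cells. As this contrast was in view when the members were chosen, nothing is read from that count. Snhg6, host of Snord87 (mm10 chr1:9941959-9944118, minus strand), stood at 5.69 and 3.10 CPM on AUF1 polysomes and at 17.3 and 16.3 CPM in AUF1 total RNA. In WT cells Snhg6 stood at 4.06 and 3.87 CPM on polysomes and 17.3 and 17 CPM in total RNA. Its log2 ratio was -1.93 ± 0.36 in AUF1 and -2.11 ± 0.36 in WT cells, the lowest of the hosts in each genotype. The snoRNAs within these hosts that have a line of their own held at most 13 counts over all libraries. They share annotated exon bases with their hosts, and how reads over both were counted is not stated, so these counts set no limit on them. The exons of Snhg6 overlap those of the antisense gene Mcmdc2 by 127 bases, and Mcmdc2 had 0 counts.

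Gas5, a growth-arrest RNA that hosts box C/D snoRNAs (mm10 chr1:161034422-161038539, plus strand, 10 annotated snoRNAs), stood at 31.6 and 22.9 CPM on AUF1 polysomes and 53.8 and 83.0 CPM in AUF1 total RNA. In WT cells it stood at 26.9 and 15.2 CPM on polysomes and at 69.5 and 101 CPM in total RNA. The log2 ratio of Gas5 was -1.33 ± 0.42 in AUF1 and -2.01 ± 0.43 in WT cells. The replicate numbers differed widely, at -0.77 and -1.85 within replicates 1 and 2 of AUF1 and -1.37 and -2.72 within those of WT.

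Snhg8, host of Snora24 (mm10 chr3:123507552-123508404, minus strand), stood at 10.7 and 11.5 CPM on AUF1 polysomes and at 28.7 and 27.9 CPM in AUF1 total RNA. In WT cells Snhg8 stood at 9.03 and 7.24 CPM on polysomes and 22.6 and 25.5 CPM in total RNA. Its ratio of -1.35 ± 0.27 in AUF1 and -1.57 ± 0.27 in WT cells had the smallest SE among the 5 hosts that stood lower. Snhg12, with 5 annotated snoRNAs, most of them of the H/ACA class that guides pseudouridylation (mm10 chr4:132308623-132311024, plus strand), stood at -1.32 ± 0.43 in AUF1 and -1.34 ± 0.43 in WT cells. Its CPM were 29.2 and 20.1 on AUF1 polysomes against 76.9 and 46.1 in AUF1 total RNA, and 31.8 and 17.9 on WT polysomes against 70.8 and 55.0 in WT total RNA.

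Snhg1, host of Snord22 among 8 annotated snoRNAs (mm10 chr19:8723475-8726443, plus strand), had the smallest difference of these 5 hosts. It stood at 20.9 and 14.2 CPM on AUF1 polysomes and at 31.7 and 30.8 CPM in AUF1 total RNA, a log2 ratio of -0.83 ± 0.29. In WT cells it stood at 18 and 15 CPM on polysomes and at 35.3 and 35.6 CPM in total RNA, a log2 ratio of -1.10 ± 0.30.

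Snhg5 went the other way. This host of Snord50a and Snord50b (mm10 chr9:88521050-88522929, minus strand) stood at 72.0 and 52.4 CPM on AUF1 polysomes and at 42.3 and 41.9 CPM in AUF1 total RNA, and at 68.9 and 67.2 CPM on WT polysomes and 51.0 and 59.3 CPM in WT total RNA. Each polysome library lay above each total library of its genotype. The log2 ratio was 0.56 ± 0.26 in AUF1 and 0.30 ± 0.26 in WT cells, and 0.77 and 0.32 within replicates 1 and 2 of AUF1 and 0.43 and 0.18 within those of WT. Snhg5 stood at the 90.6th percentile of all tested genes in AUF1 cells and at the 79.6th in WT cells, whereas the other 5 hosts lay at or below the 4.88th in AUF1 and the 1.5th in WT cells.

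Of the nuclear RNAs, Neat1 (mm10 chr19:5824708-5845478, minus strand) stood at 24.2 and 23.2 CPM on AUF1 polysomes and 34.3 and 61.1 CPM in AUF1 total RNA, and at 28.7 and 28.3 CPM on WT polysomes and 41.4 and 57.9 CPM in WT total RNA. Its log2 ratio was -1.01 ± 0.36 in AUF1 and -0.80 ± 0.35 in WT cells. Malat1 (mm10 chr19:5795690-5802672, minus strand) stood at 11.5 and 9.14 CPM on AUF1 polysomes and 7.92 and 18.5 CPM in AUF1 total RNA, and these libraries overlapped. On WT polysomes Malat1 stood at 7.10 and 3.43 CPM, below the 9.32 and 17.9 CPM of WT total RNA. The log2 ratio of Malat1 was -0.36 ± 0.58 in AUF1 cells, with 0.53 and -1.02 within replicates 1 and 2, and -1.37 ± 0.59 in WT cells, with -0.39 and -2.37. Without AUF1 total replicate 2 the AUF1 ratio turned to 0.38. In total RNA, Malat1, Neat1 and Gas5 were each higher in replicate 2 than in replicate 1 of either genotype, with log2 differences of replicate 1 minus 2 from -1.22 to -0.48, while that of H19 was 0.23 in AUF1 and -0.26 in WT.

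**Figure D2:**
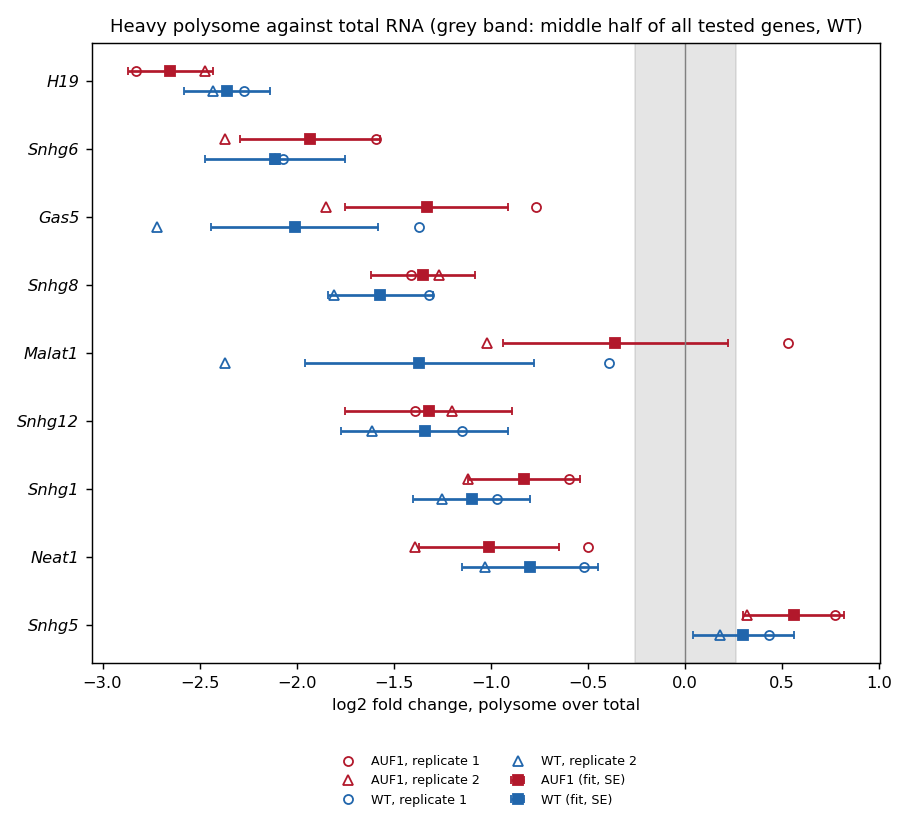
Log2 fold change of heavy polysome over total RNA (x axis) for the 9 noncoding RNAs in AUF1 (red) and WT (blue) cells; squares are fitted values with SE, circles and triangles the values within replicates 1 and 2, and the grey band runs between the quartiles of all tested genes in WT (-0.26 to 0.26). H19 stands lowest in either genotype and Snhg5 is the member above 0.

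In all, 7 of 9 members had both polysome libraries below both total libraries in AUF1 cells, where 13.4% of tested genes did, and 8 of 9 in WT cells, where 14.9% did. The libraries of 1 member, Snhg5, lay the other way in each genotype (8.86% of genes in AUF1 and 13% in WT). edgeR's quasi-likelihood test called 0 genes at an adjusted p under 0.05 in either genotype (0% of genes), with 438 genes in AUF1 and 364 in WT at an unadjusted p under 0.05. DESeq2 called 25 genes in AUF1 and 29 in WT. Since these contrasts were in view when the list was made, nothing is read from these counts.

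Other gene classes are given for scale only, since the members were chosen with this ratio in these libraries known. Classes follow the annotated gene type alone, and 56 genes of long noncoding type had a mean log2 CPM of at least 3. Some of them, such as Cct6a, Ifi30 and Ptpmt1, bear symbols of protein-coding genes, so the class is not purely noncoding. The 47 that are not members had a median log2 ratio of -0.17 in AUF1 and -0.08 in WT cells. Of these 47 genes, 4.26% in AUF1 and 8.51% in WT cells stood below -1, 2410006H16Rik (-1.81 and -1.76) among them. Of 9066 protein-coding genes at that level, 1.80% in AUF1 and 1.03% in WT cells did. H19 and Snhg6 held the lowest 2 places among the 56 genes in each genotype, and Snhg5 places 53 and 45, which is a description only. In a list of other long noncoding RNAs the 13 tested had medians of -0.04 in AUF1 and -0.01 in WT cells. Their values ran from -1.65 to 0.94 in AUF1 and from -1.62 to 0.59 in WT cells, with 7 of 13 below 0 in each. Among the high ones Tug1, a widely expressed RNA, stood at 0.92 ± 0.38 in AUF1 and 0.56 ± 0.38 in WT cells. Its CPM were 80.7 and 47.7 on AUF1 polysomes against 25.1 and 43 in AUF1 total RNA. The AUF1 ratio of Tug1 thus came mostly from replicate 1. In WT cells Tug1 stood at 87.9 and 83.2 CPM on polysomes and 53.3 and 62.4 CPM in total RNA. Xist, the RNA that coats the inactive X chromosome, stood at 0.94 ± 0.59 in AUF1 and -0.01 ± 0.59 in WT cells. The AUF1 value of Xist rests on 1 library, with 18.1 and 4.98 CPM on AUF1 polysomes and 5.67 and 6.33 CPM in AUF1 total RNA, and the ratio within replicate 2 was -0.34. Protein-coding genes with fewer than 100 codons had medians of -0.16 in AUF1 and -0.05 in WT cells.

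**Figure D3:**
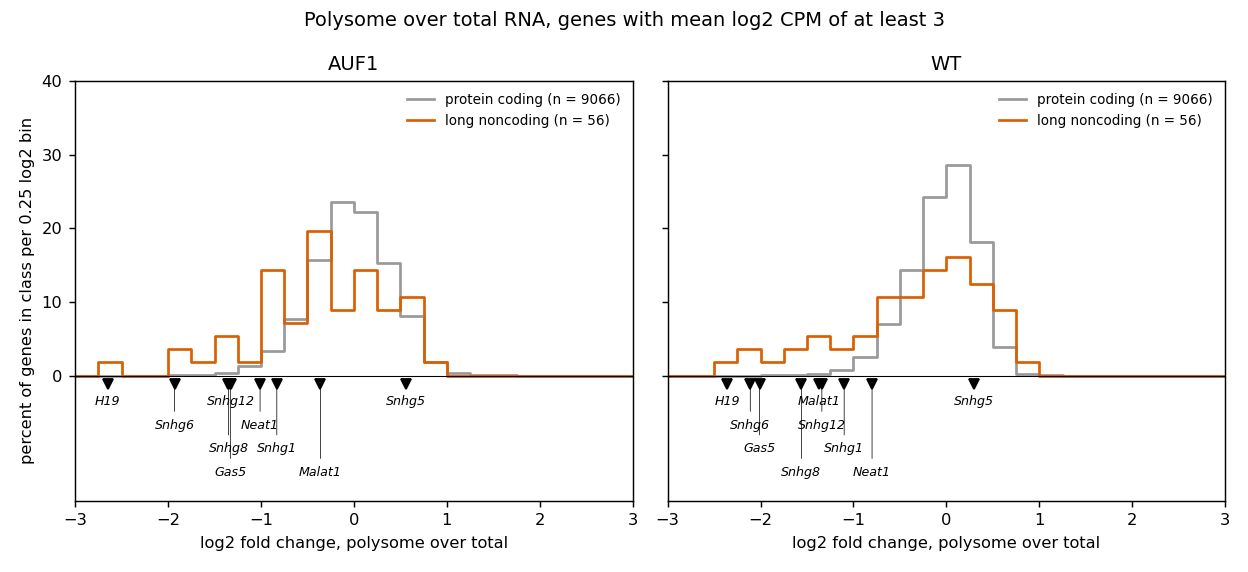
Percent of genes per bin of 0.25 (y axis) along the log2 fold change of polysome over total RNA (x axis) for 9066 protein-coding genes (grey) and 56 genes of long noncoding type (orange), classed by annotated gene type, in AUF1 (left) and WT cells (right); black marks below the axis show the members. H19 lies at the far left in each genotype and Snhg5 to the right of 0.

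RNAs with which the members share features are given for comparison. The 12 tested genes of a list of other snoRNA hosts, noncoding and coding, had a median ratio of -0.79 in AUF1 and -0.81 in WT cells, with 9 and 11 of 12 below 0. The lowest of them, Dancr and Snhg9 in AUF1 cells, held at most 23 counts in any library and are given no fold. The coding host Gnl3, a nucleolar GTPase, stood at 0.56 ± 0.44 in AUF1 and 0.18 ± 0.44 in WT cells. Its CPM were 111 and 118 on AUF1 polysomes against 45.8 and 110 in AUF1 total RNA. In WT cells they were 76.5 and 75.1 on polysomes against 52.4 and 81.2 in total RNA. Both ratios thus came mostly from replicate 1, and in WT replicate 2 the polysome value was the lower. The 77 tested ribosomal protein genes, which like Gas5 begin with a pyrimidine tract, had a median of -0.58 in AUF1 and -0.70 in WT cells, with 64 and 69 of 77 below 0. In these 2 lists 0 genes were called in either genotype, where 0% of all tested genes were.

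Over the 8 libraries, the genes with the highest Pearson correlation of log2 CPM with H19 among 9662 genes were Fth1, the ferritin heavy chain (Pearson's r = 0.99), Coro7 (0.986), Rpl41, which encodes a very short ribosomal protein (0.985), Ppp4r1 (0.984) and Snhg8 (0.983). The libraries fall into fraction and genotype groups, so this order is a description, and by Spearman's rho it differed: Snhg8 came at place 9 (0.976), Fth1, Coro7 and Ppp4r1 at place 87 (0.929) and Rpl41 at place 153 (0.905). How reads of genes with near-identical copies, such as Fth1 and Rpl41, were counted is not stated, and their levels are uncertain. Fth1 stood at 708 and 905 CPM on AUF1 polysomes and 3064 and 2706 CPM in AUF1 total RNA, a ratio of -1.84, and Rpl41 had ratios of -2.19 in AUF1 and -1.98 in WT cells. Of the other members, Snhg6 had a Pearson's r of 0.95 and a Spearman's rho of 0.667, Snhg1 0.896 and 0.643, and Snhg5 -0.826 and -0.833.

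The comparison of AUF1 with WT asks which of these RNAs differ with AUF1 overexpression. H19 was 1.57-fold higher in AUF1 total RNA, with a log2 difference of 0.65 ± 0.21, and both AUF1 libraries lay above both WT libraries. It did not pass the threshold in edgeR's quasi-likelihood test (adjusted p = 0.242), and the difference was 0.90 within replicate 1 and 0.41 within replicate 2. Scaled by library totals alone, which lowers the median of all genes by 0.20, the difference was 0.43. On heavy polysomes H19 was 1.28-fold higher with AUF1, a log2 difference of 0.36 ± 0.21 (adjusted p = 0.545), with 0.34 and 0.37 within the replicate numbers. Beside this, the 6 myotube markers had a median difference of 3.12 in total RNA, 2 of 6 passing the test, and of 2.74 on polysomes, 0 of 6 passing; the part of the muscle genes in the H19 difference was not tested.

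In total RNA 0 of 9 members were called with AUF1, where 1.02% of tested genes were (0.82% higher and 0.197% lower). On heavy polysomes 0 of 9 were called, where 0.349% of genes were (0.281% higher and 0.0684% lower). These background counts depend on the fit. From 134 genes in total RNA and 46 on polysomes they went to 1730 and 1716 with the replicate number as a block, to 885 and 856 in DESeq2, and to 0 with RLE scaling (relative log expression), scaling by library totals or any 1 library left out. The members called were 0 of 9 in each of these fits. The members' median difference was -0.04 in total RNA and 0.15 on polysomes, and that of all genes was 0 in each. In total RNA both AUF1 libraries lay above both WT libraries for H19 and Snhg8 (22.5% of genes) and below them for Snhg1 and Snhg5 (17.8%). On polysomes H19, Malat1 and Snhg8 lay above (23.6%) and Neat1 below (21.3%). Members with such separated libraries were thus about as frequent as among all genes.

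Snhg8 was 1.17-fold higher with AUF1 in total RNA (0.23 ± 0.26, edgeR adjusted p = 0.805) and 1.37-fold higher on polysomes (0.45 ± 0.26, adjusted p = 0.542). Snhg5 stood at -0.39 ± 0.26 in total RNA (adjusted p = 0.602) and at -0.13 ± 0.26 on polysomes (adjusted p = 0.949). Gas5 stood at -0.31 ± 0.41 in total RNA (adjusted p = 0.847) and at 0.37 ± 0.41 on polysomes (adjusted p = 0.824). Malat1, the member furthest from 0 on polysomes, stood at 0.97 ± 0.59 there (adjusted p = 0.562) and at -0.04 ± 0.58 in total RNA (adjusted p = 0.99), at counts of 108 to 511 per library. Its polysome difference was 1.59 without WT polysome replicate 1 and 0.54 without WT polysome replicate 2. Neat1, Snhg1, Snhg6 and Snhg12 lay between -0.18 and -0.03 in total RNA (adjusted p from 0.88 to 0.99) and between -0.27 and 0.15 on polysomes (adjusted p from 0.879 to 0.996); scaling by library totals turned Snhg1 on polysomes to -0.04.

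**Figure D4:**
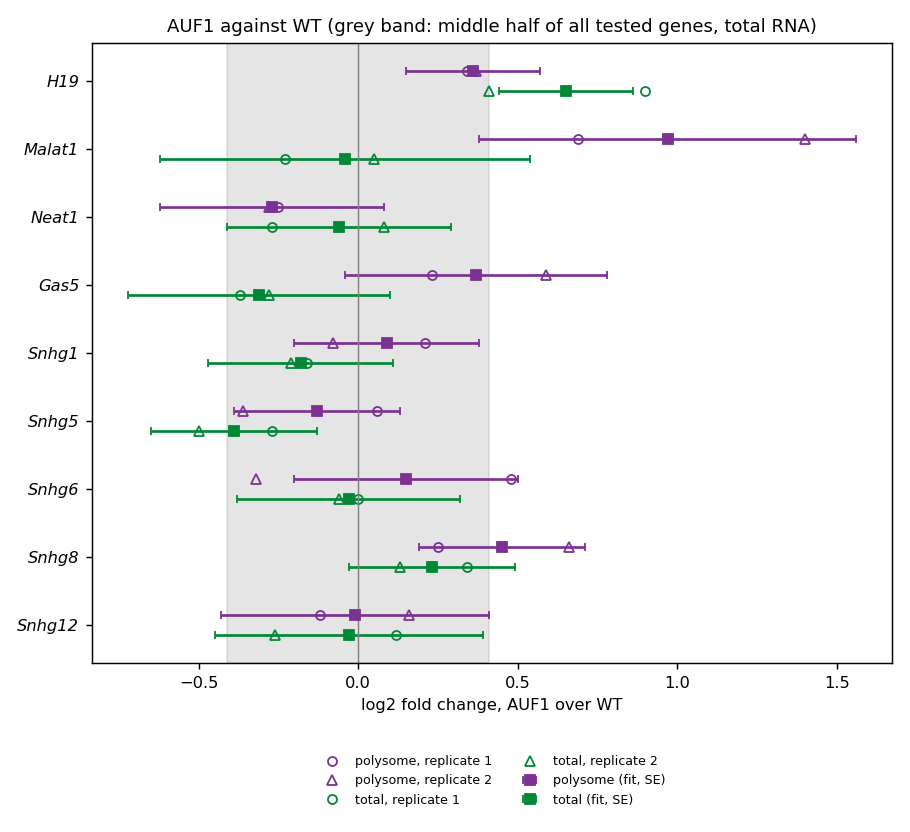
Log2 fold change of AUF1 over WT (x axis) for the 9 noncoding RNAs on polysomes (purple) and in total RNA (green); squares are fitted values with SE, circles and triangles the values within replicates 1 and 2, and the grey band runs between the quartiles of all tested genes in total RNA (-0.41 to 0.41). H19 and Snhg8 lie above 0 in each fraction, and none of the 9 RNAs passed the test.

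Whether AUF1 changed the polysome share of an RNA was tested as the interaction of genotype and fraction. No gene of the table was called by edgeR (0%) or DESeq2, with 16 genes at an unadjusted p under 0.05 in edgeR. Those 16 are far fewer than the threshold alone would give among 13167 genes, and the median SE was 0.60. The edgeR fit could thus hardly call a gene here, and the absence of calls does not show that polysome shares were unchanged. Among the members the interaction lay between -0.29 ± 0.30 (H19) and 1.01 ± 0.82 (Malat1), each with an adjusted p of 1. That of Malat1 ran from 0.46 to 1.76 with 1 library left out, the extremes being without WT total replicate 2 and without AUF1 total replicate 2. All 6 snoRNA hosts had a value above 0, from 0.02 ± 0.60 (Snhg12) to 0.69 ± 0.58 (Gas5). Of all tested genes 52.6% lay below 0, with a median of -0.02. The interaction is formed from polysome ratios that were in view when the members were chosen, so nothing is read from the count of hosts. Without AUF1 polysome replicate 1 the interactions of Snhg1, Snhg6 and Snhg12 turned below 0. That of Snhg12 did so too without AUF1 total replicate 2, WT polysome replicate 2 or WT total replicate 1.

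AUUUA pentamers, the core of AU-rich elements, were counted in the longest GENCODE M21 transcript of each gene, on the sense strand and with overlaps allowed. H19 held 1 in 2286 bases (0.44 per kb) and Snhg12 1 in 1538, while Snhg5 and Snhg8 held 0. Gas5 held 6 (2.35 per kb), Snhg1 6 (2.20), Malat1 12 (1.72), Neat1 21 (1.01) and Snhg6 1 (1.23). The median over 12356 tested genes was 0.85 per kb, and 82.1% of them held at least 1. Longest transcripts include ones that keep introns, and a match is no binding site. Longest reading frames from an AUG ran to 147 codons in H19, 126 in Neat1 and 35 to 66 in the 6 snoRNA hosts and Malat1.

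Lists of genes connected with these RNAs were read as well. A list of 13 genes held H19-binding proteins and the Igf2 axis, and also Smad1, Smad5 and Cdc6. With AUF1, 1 of the 13 passed in total RNA and 0 on polysomes. Of all tested genes 1.02% passed in total RNA and 0.349% on polysomes, so few or no calls are likely in any list this small. In the list of 13, Hnrnpd alone passed. It is the gene overexpressed by design, so its call says nothing about the list. Of 11 paraspeckle proteins 0 passed in either fraction, with a median difference of 0.15 in total RNA and 0.27 on polysomes. Of 18 nonsense-mediated decay factors 0 passed in either fraction. In total RNA Smg5 stood at 0.85 ± 0.30 (edgeR adjusted p = 0.277) and the helicase Upf1 at 0.66 ± 0.32 (adjusted p = 0.448). On polysomes Smg5 averaged 293 CPM in AUF1 and 209 CPM in WT cells, and Upf1 91.1 and 88.1 CPM. Mitochondrially encoded RNAs were not analysed here.

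Meg3, the maternally expressed RNA of the Dlk1-Dio3 locus (mm10 chr12:109541001-109571726, plus strand), was listed at 0 in every library. This sets no limit on its expression, because Rpl26, a ribosomal protein gene that every cell uses, was also listed at 0 in all 8 libraries, and Gapdh, a glycolytic enzyme, stood at only 0.667 to 4.94 CPM. Of the 6 genes of that locus, 5 were at 0 in every library, Rtl1, Rian, Mirg and Dio3 with Meg3, and Dlk1 had 40 counts in 2 libraries. Igf2, the paternally expressed neighbour of H19, stood at 72.7 and 12.6 CPM on AUF1 polysomes and 79.6 and 8.98 CPM on WT polysomes. In total RNA Igf2 stood at 63.7 and 19.9 CPM in AUF1 cells and at 66.5 and 16.9 CPM in WT cells. Igf2 was higher in replicate 1 than in replicate 2 of every group, whereas the log2 difference of replicate 1 minus 2 ran from -0.26 to 0.23 for H19. Of 18 tested imprinted coding genes 0 passed with AUF1 in either fraction, where 1.02% of tested genes did in total RNA and 0.349% on polysomes. In total RNA Snrpn stood at 4.12 ± 0.68 (edgeR adjusted p = 0.0575) and Grb10 at 2.48 ± 0.63 (adjusted p = 0.151). Snrpn held only 2 and 4 counts in the WT total libraries and Grb10 15 and 22, so the size of these differences is uncertain.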

How the data were processed

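The deposited file gives raw counts per gene symbol for 8 libraries. Replicate numbers follow the sample titles; the libraries titled replicate 2 are numbered 3 in the sample descriptions and column names. Per the submitters' processing notes, cutadapt, Bowtie, Trimmomatic, STAR and SAMtools were used with mm10; which versions, counting program, strand setting and annotation applied is not stated. Reads outside genes made up 6.04% to 7.23% and reads of more than 1 gene 0.254% to 0.389% of each library; these summary lines were left out. Genes were filtered with filterByExpr, scaled by TMM and fitted in edgeR 4.0.16 (R 4.3.3) by quasi-likelihood with a coefficient for each group across all 8 libraries, with Benjamini-Hochberg adjustment across 13167 genes. The pipeline was run on simulated counts with the same spread for every gene and no shift between replicate numbers. That setting is simpler than these libraries, so the run does not measure how well the fit performs on them. SE is the log2 change over the square root of F, and values within a replicate number use log2 CPM with a prior count of 2. DESeq2 1.42.0, other scalings, no filter, a replicate block and leaving out each library were the alternatives.

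Annotation came from GENCODE M21 (mm10), in which 12356 tested genes (93.8%) were found by symbol, and sequences from RefSeq tables of GRCm38.p6. The members and lists were chosen with earlier results of these data known. The members are named whatever their result, and of each list up to 4 genes by smallest p, or the extremes of the polysome ratio; Igf2 was named after its values were seen, and the gene classes and AUUUA counts were set up then too.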

Additional observations from a re-analysis of the deposited data

Results flagged for a closer look

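Gas5 stood lower with AUF1 in total RNA (-0.31 ± 0.41, SE; -0.37 and -0.28 within replicates 1 and 2) and higher on polysomes (0.37 ± 0.41; 0.23 and 0.59), so every replicate number moved one way in one fraction and the opposite way in the other. The interaction test of that difference gave 0.69 ± 0.58 with an edgeR adjusted p of 1, which did not pass. With 1 library left out the interaction ran from 0.34 to 1.15. The total RNA difference was -0.02 without WT total replicate 2, and the polysome difference 0.02 without WT polysome replicate 2, so 1 library brings either close to 0. Groups of 2 libraries were too small for a test of single outlying libraries.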

How the results depend on the processing

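Replicate numbers were not taken as pairs, since the labels do not say what a number shares. With the replicate block 0 of 9 members were called for AUF1 against WT in either fraction (H19 in total RNA 0.66, adjusted p = 0.101), and its interaction calls were 0 as well. Genes called for AUF1 against WT numbered 1730 with the block (920 higher, 810 lower), 885 in DESeq2 (523 higher, 362 lower), 0 with RLE scaling and 0 by library totals in total RNA (134 in the planned fit, 108 higher and 26 lower), and 1716 (882 higher, 834 lower), 856 (480 higher, 376 lower), 0 and 0 on polysomes (46 in the planned fit, 37 higher and 9 lower), where no filter gave 94. For polysome against total RNA they numbered 2 with the block, 25 in DESeq2 and 1 with no filter in AUF1, and 2 with the block and 29 in DESeq2 in WT. Members among these numbered 1 with the block, 2 in DESeq2 and 1 with no filter in AUF1, and 1 with the block and 2 in DESeq2 in WT; nothing is read from them, since this contrast chose the members. The cause of these differences was not tested. Leaving out any 1 library left 0 genes and 0 members called in each comparison, with 3 residual degrees of freedom and a lone library assumed to vary like the others.

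Directions that turned were those of values smaller than their SE. The furthest from 0 was the polysome ratio of Malat1 in AUF1, at -0.36 ± 0.58. Snhg1 on polysomes with AUF1 was -0.04 by library totals and -0.22 to 0.30 with 1 library left out, and Snhg12 was 0.02 with the block and -0.37 to 0.45. With 1 library left out the AUF1 difference in total RNA ran from -0.78 to 0.51 for Malat1, -0.53 to 0.25 for Neat1, -0.13 to 0.01 for Snhg6 and -0.50 to 0.29 for Snhg12. On polysomes it ran from -0.38 to 0.03 for Snhg5 and -0.36 to 0.47 for Snhg6. The interaction ran from -0.59 to 0.27 for Neat1, -0.04 to 0.57 for Snhg1, -0.33 to 0.60 for Snhg6 and -0.33 to 0.49 for Snhg12, and the polysome ratio of Malat1 in AUF1 from -0.84 to 0.38. H19 kept its direction in all 5 comparisons under every alternative run, with a polysome ratio of -2.76 to -2.53 in AUF1 and -2.46 to -2.22 in WT with 1 library left out. Counting error is small for H19 and largest for Snhg6 and Malat1, with 84 to 511 counts per library.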
